A study of Homo sapiens with 2 samples.

Results

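The metallothionein genes of cluster cells grown from human embryonic stem cells are described here, gene by gene, cell class by cell class and in both sequenced libraries. The members are MT1A, MT1B, MT1E, MT1F, MT1G, MT1H, MT1M, MT1X and MT2A, together with MTF1, which encodes the transcription factor of the family. They are 10 of the 33694 genes counted, and all 10 were found by symbol. An earlier reading of the same libraries had shown the family to be high in some of the insulin cells, and the members were chosen by that UMI level, so their levels across classes are given as a description.

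Both libraries came from enhanced Beta-clusters (eBCs), insulin cell clusters reaggregated from sorted GFP-high cells, of the iSOX9KO line. This line was made from Mel1-INS-GFP, a human embryonic stem cell line with GFP in the insulin gene, and 1 clone was used. Every cell of both libraries carries the CAG-driven rtTA activator, a Cas9 under the doxycycline-responsive TRE promoter and guides against SOX9, all at the AAVS1 site. One library had no doxycycline (labelled no DOX) and the other had doxycycline at 2 ug/ml from day 12 (labelled DOX). The medium of both held zinc sulfate, a metal salt that metallothionein genes are known to answer, as well as N-acetyl cysteine, so neither library is a culture without added zinc. Live sorted cells were counted by 10x Genomics droplet sequencing, and each condition has 1 library, so no difference between conditions could be tested. The targeted gene, SOX9, was counted at 2.998 per 1000000 UMIs in the no DOX-labelled library (946 UMIs) and at 3.78 in that labelled DOX (1147 UMIs). It was therefore not lower with the DOX label over all cells, where 641 and 860 of these UMIs lay in the duct-like cells named below. Beta-like cells had 40 and 35 SOX9 UMIs (log2 ratio of DOX over no DOX -0.44, interval -1.13 to 0.25), too few to tell. Cuts by Cas9 need not lower the RNA count of a gene, so this count does not check the labels and the libraries are named by them throughout.

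Metallothioneins are very small proteins rich in cysteine that bind zinc and copper, buffer free zinc and take up reactive oxygen. MTF1 is a zinc finger protein that senses free zinc, enters the nucleus and binds metal response elements, short DNA motifs in the promoters of metallothionein genes and of the zinc exporter gene SLC30A1. Pancreatic beta cells hold much zinc, since insulin is stored in granules as zinc-bound hexamers, and SLC30A8 loads that zinc into the granules.

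The 9 metallothionein genes lie together within 75613 bases of chromosome 16 (GRCh38, 56608584 to 56684196, by the GENCODE 44 annotation), and 8 of the 9 are read from the plus strand. In order along the chromosome, MT2A spans 56608584 to 56609497, MT1E 56625475 to 56627112, MT1M 56632659 to 56633981 and MT1A 56638666 to 56640087. They are followed by MT1B from 56651886 to 56653204, MT1F from 56657731 to 56660698, MT1G from 56666730 to 56668065 on the minus strand, MT1H from 56669814 to 56671129 and MT1X from 56682470 to 56684196. MTF1 lies apart from them, on chromosome 1 from 37809574 to 37859592, on the minus strand. All 10 are annotated as protein coding.

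Promoter sequences of these neighbouring genes are given because the members rise together in single cells below. The 250 bases before the start of MT2A (chr16:56608334-56608583), MT1B (chr16:56651636-56651885), MT1H (chr16:56669564-56669813) and MT1X (chr16:56682220-56682469) are given 5′ to 3′ on the plus strand, from RefSeq on GRCh38.p14. Capitals mark each match to the letters of the metal response element core, TGCACNC, or to the related TGCGCNC, on either strand.
MT2A: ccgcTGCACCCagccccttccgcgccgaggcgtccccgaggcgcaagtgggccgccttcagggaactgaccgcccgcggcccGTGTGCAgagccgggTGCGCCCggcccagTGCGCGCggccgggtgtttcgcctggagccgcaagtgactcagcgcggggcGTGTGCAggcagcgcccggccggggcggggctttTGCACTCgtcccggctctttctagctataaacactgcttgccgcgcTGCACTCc
MT1B: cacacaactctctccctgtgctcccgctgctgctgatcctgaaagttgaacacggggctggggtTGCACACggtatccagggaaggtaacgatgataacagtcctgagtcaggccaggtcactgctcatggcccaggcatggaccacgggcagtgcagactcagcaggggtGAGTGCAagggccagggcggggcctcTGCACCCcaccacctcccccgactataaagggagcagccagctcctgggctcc
MT1H: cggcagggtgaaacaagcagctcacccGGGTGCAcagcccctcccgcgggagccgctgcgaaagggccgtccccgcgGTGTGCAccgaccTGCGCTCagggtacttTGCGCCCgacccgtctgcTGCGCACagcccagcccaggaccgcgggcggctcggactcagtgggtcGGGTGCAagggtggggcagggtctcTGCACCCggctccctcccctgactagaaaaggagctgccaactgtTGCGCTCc
MT1X: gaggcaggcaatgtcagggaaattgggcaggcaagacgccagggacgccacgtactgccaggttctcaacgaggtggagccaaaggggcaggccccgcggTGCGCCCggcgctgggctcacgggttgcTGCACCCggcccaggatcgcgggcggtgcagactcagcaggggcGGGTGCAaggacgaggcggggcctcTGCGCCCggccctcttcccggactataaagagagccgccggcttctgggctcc
The MT2A promoter held 7 matches, 5 of TGCACNC and 2 of TGCGCNC, and the MT1H promoter held 8, with 4 of each. The MT1X promoter held 4 matches, 2 of each, and the MT1B promoter held 3, all TGCACNC. The promoter of MT4 (chr16:56564823-56565072), a gene of the family with no UMI in either library, also held 3 matches, all TGCACNC. Of 35116 promoters of the same length, 24.8% held at least 1 match (9.87% of TGCACNC and 16.8% of TGCGCNC) and 1.58% held 3 or more. The 250 bases before MTF1 (chr1:37859593-37859842) held none of these letters. A match is a description of letters and not a measured site of binding. Promoters of MT1A, MT1E, MT1F, MT1G and MT1M were not analysed here.

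The libraries held 30288 barcodes with 550240855 UMIs (labelled no DOX) and 31817 barcodes with 520849221 UMIs (labelled DOX). After removal of barcodes under 1000 UMIs and of doublets, 21805 and 23116 cells were kept, with medians of 13958 and 12667 UMIs. The 2 libraries shared 369 barcode sequences, of which 141 were kept as cells in both. Clusters were formed without the metallothionein genes and MTF1 and named from markers. They gave 16973 beta-like, 9193 alpha-like, 4585 delta-like, 10578 beta cell progenitor-like, 954 proliferating progenitor-like and 330 duct-like cells, and 2308 cells of low depth and high mitochondrial share stayed unnamed. Every class held all of its 12 or 13 markers at 5 CPM or more. Insulin RNA was in every class, with INS at 149015 CPM in the alpha-like cells of the no DOX-labelled library that held at most 100 metallothionein UMIs per 10000. Markers of endothelial cells summed to at most 0.0527 CPM over all cells, those of mesenchymal cells to at most 0.970, of acinar cells to at most 1.93, of hepatocytes to at most 4.67 and of immune cells to at most 19.9, nearly all CD68. Levels are UMIs of a gene per 1000000 UMIs of the cells (CPM), with exact Poisson 95% intervals that cover counting error only. A UMI tags 1 molecule, so no scaling by length was made.

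Beta-like cells had the highest summed level of the 9 metallothionein genes in both libraries. In the no DOX-labelled library the sum was 5699.6 CPM (95% interval 5686.7 to 5712.5) in beta-like cells, followed by duct-like (1865.5), delta-like (1542.4), proliferating progenitor-like (944.1), alpha-like (909.8) and beta cell progenitor-like cells (804.3). In the DOX-labelled library it was 3663.5 CPM (3654 to 3673) in beta-like cells, followed by delta-like (1119.2), duct-like (910.1), alpha-like (721.2), proliferating progenitor-like (572.2) and beta cell progenitor-like cells (547.5). No neighbours in either order overlapped in their counting intervals, though those intervals leave out the spread between cells, which was large. Beta-like cells held 80.2% and 84.4% of the metallothionein UMIs of the no DOX-labelled and DOX-labelled libraries, with 41.9% and 51.5% of all UMIs.

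The rank of the rarer classes rested on few cells. In 3 of 153 duct-like cells of the no DOX-labelled library, metallothionein UMIs exceeded 100 per 10000 UMIs of the cell, and without these 3 the sum of that class was 878.2 CPM in place of 1865.5. The same step took proliferating progenitor-like cells of that library from 944.1 to 583.4 CPM (3 of 469 cells) and beta cell progenitor-like cells from 804.3 to 595.9 CPM (8 of 5282 cells). Alpha-like cells went from 909.8 to 792.6 CPM without 13 of 5066 cells, and delta-like cells from 1542.4 to 1419 CPM without 31 of 2641. INS stood at 126567 CPM in those 8 progenitor-like cells against 70772 in the rest, at 125300 against 95886 CPM in those 3 proliferating progenitor-like cells and at 54266 against 18103 CPM in those 3 duct-like cells. In alpha-like and delta-like cells of that library INS stood at 123105 against 149015 and at 143037 against 143713 CPM. In the DOX-labelled library it was at 171863 against 58583 CPM in beta cell progenitor-like (1 high cell), 199358 against 84688 in proliferating progenitor-like, 156401 against 123808 in delta-like, 124070 against 119622 in alpha-like and 8787 against 15111 CPM in duct-like cells. INS was thus higher in the high cells in some classes and level or lower in others. In that library the sum of duct-like cells went from 910.1 to 585.2 CPM without 4 cells, below the 596.8 CPM of alpha-like cells without theirs. Their part in the class levels as beta-like cells or doublets was not tested.

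**Figure D1:**
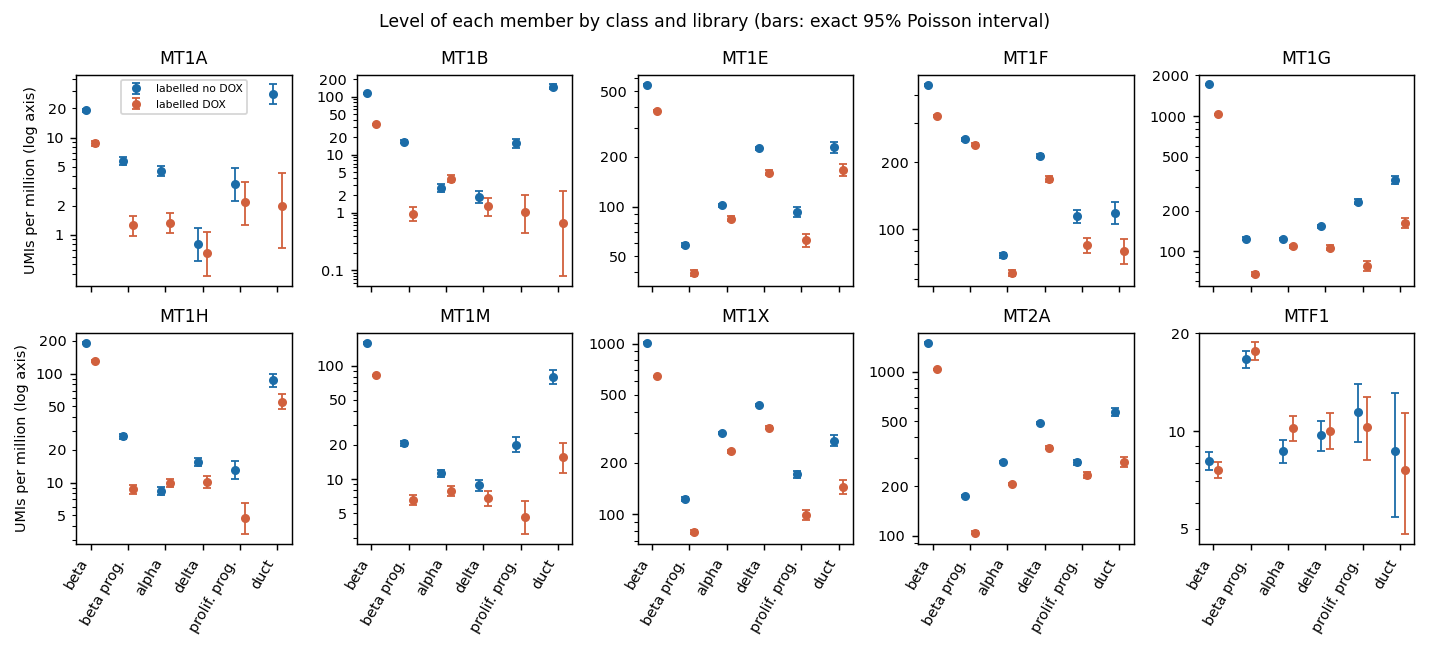
Level of each member in CPM (log axis) for 6 cell classes (x axis) in the no DOX-labelled and DOX-labelled libraries, with exact 95% Poisson intervals. The metallothionein genes are highest in beta-like cells, apart from MT1A and MT1B in duct-like cells of the no DOX-labelled library, where 54 of 71 and 363 of 376 UMIs lay in 1 cell, while MTF1 is highest in beta cell progenitor-like cells.

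The most counted members were MT1G, MT2A and MT1X. MT1G stood at 1716 CPM in beta-like cells of the no DOX-labelled library and at 1029 in that labelled DOX, and between 123 and 337 and between 67.5 and 162 CPM in the other named classes. MT2A, the most widely expressed metallothionein of human tissues, stood at 1499 and 1034 CPM in beta-like cells and at 486 and 344 CPM in delta-like cells. MT1X stood at 1009 and 642 CPM in beta-like, 437 and 322 in delta-like and 299 and 233 in alpha-like cells, and at its lowest in beta cell progenitor-like cells, with 123 and 78.6 CPM. In beta-like cells MT1G was thus above MT2A in the no DOX-labelled library, while in that labelled DOX their intervals (1024 to 1034 and 1029 to 1039 CPM) overlapped.

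MT1E and MT1F were counted less. MT1E stood at 547 and 381 CPM in beta-like cells, at 226 and 160 CPM in delta-like cells and at 228 and 167 CPM in duct-like cells, with overlapping intervals between the last 2 classes in both libraries. MT1F stood at 444 and 322 CPM in beta-like cells and, in beta cell progenitor-like cells, at 254 and 240 CPM, where it was the most counted member. In alpha-like cells MT1F was at its lowest, with 76.5 and 64.0 CPM. It took 31.6% and 43.8% of the metallothionein UMIs of beta cell progenitor-like cells, 7.8% and 8.8% in beta-like cells and 8.4% and 8.9% in alpha-like cells. The part of free RNA in these levels was not tested.

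The 4 remaining genes were the least counted in beta-like cells. MT1H stood at 191 and 131 CPM in beta-like cells, MT1M at 159 and 82.2, MT1B at 115 and 33.4 and MT1A at 19.0 and 8.72 CPM. In alpha-like cells MT1H was at 8.44 and 9.97 CPM, MT1M at 11.2 and 7.88, MT1B at 2.64 and 3.83 and MT1A at 4.51 and 1.33 CPM. In duct-like cells MT1H stood at 87.1 and 55.4 CPM, with 62 of 221 and 61 of 168 UMIs in 1 cell, and MT1M at 79.7 and 15.5 CPM, with 153 of 202 UMIs labelled no DOX in 1 cell. Several levels outside beta-like cells came from single cells: 363 of the 376 MT1B UMIs in duct-like cells labelled no DOX lay in 1 cell, while the duct-like cells labelled DOX held 2 UMIs in all. Likewise 1 cell held 605 of the 1108 MT1B UMIs of beta cell progenitor-like cells labelled no DOX, and 1 cell held 193 of the 306 MT1A UMIs of the alpha-like cells of that library. Their levels in those classes are therefore those of a few cells.

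Copies of the family resemble each other, and this limits how sharply the members can be told apart. Of the 31-base stretches in the GENCODE 44 transcripts of a gene, another gene also held 44.4% for MT1M, 29.9% for MT1H, 27.8% for MT1B, 23.3% for MT1G, 20.3% for MT1X, 18.9% for MT1A, 15.6% for MT1E, 12.7% for MT2A and 3.31% for MT1F. Reads that fall in such stretches can be lost or given to a neighbour, and how many reads fall in them was not measured here. Outside the list, MT3, the brain form of the family, had 58 and 83 UMIs, MT1HL1 had 10 and 12, and MT4, a form of stratified epithelium, had 0 in both libraries.

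MTF1 was most counted in beta cell progenitor-like cells. Beta cell progenitor-like cells of the no DOX-labelled library had 16.6 CPM (15.7 to 17.6) and those of the DOX-labelled library 17.6 CPM (16.6 to 18.8). In beta-like cells it was at 8.09 CPM (7.62 to 8.59) and 7.59 CPM (7.17 to 8.04), below alpha-like cells (8.67 and 10.2 CPM) and delta-like cells (9.70 and 10.0 CPM). Intervals of beta-like and alpha-like cells overlapped in the no DOX-labelled library and did not in that labelled DOX, and those of duct-like cells (22 and 23 UMIs) overlapped with every named class but beta cell progenitor-like cells in both libraries.

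Compared with the other endocrine classes together (alpha-like, delta-like and beta cell progenitor-like), beta-like cells had 5.69 times the metallothionein sum in the no DOX-labelled library (interval 5.66 to 5.72) and 5.10 times in that labelled DOX (5.06 to 5.13). All 9 metallothionein genes were at least 25% higher in both libraries, as were 10.6% and 8.56% of all genes with at least 5 CPM in 1 of the groups, whose median log2 ratios were -0.28 and -0.32. This contrast was known when the members were listed, so nothing is read from that count. The genes differed in size of contrast: MT1B was 14.4 and 15.7 times higher, MT1G 13.2 and 11.4 times, MT1H 11.2 and 13.9 times and MT1M 11.03 and 11.63 times. MT2A was 5.29 and 5.50 times higher, MT1E 4.93 and 4.82 times, MT1A 4.49 and 7.41 times, MT1X 3.90 and 3.51 times and MT1F 2.54 and 2.03 times. MTF1 was lower, at 0.675 and 0.568 times the level of the other endocrine classes, where 46.4% and 50% of all genes were at least 20% lower. When clusters were made finer (Leiden resolution 0.5), the fold of the sum went from 5.24 over both libraries to a log2 ratio of 0.55, because 2 finer clusters of beta-like cells then bore no name. One of these, with 2367 and 3885 cells of which 99.7% and 99.6% were beta-like before, alone held 60.7% and 59.9% of the metallothionein UMIs of the libraries.

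Within beta-like cells the family was carried by few cells. The median beta-like cell had 10.1 metallothionein UMIs per 10000 UMIs of the cell in the no DOX-labelled library, the 90th percentile was 80.7, the 99th was 705 and the highest cell had 1639. In the DOX-labelled library the median was 6.79, the 90th percentile 50.01, the 99th 463 and the highest cell 1886. The 10% of beta-like cells with most metallothionein RNA thus held 78.0% and 77.3% of the UMIs of the 9 genes, and the top 1% held 27.8% and 32.7%. Only 1.55% and 2.65% of beta-like cells had no metallothionein UMI.

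The medians of the classes lay closer together than the sums. Delta-like cells had a median of 8.35 and 5.58 per 10000 in the no DOX-labelled and DOX-labelled libraries, alpha-like cells 5.03 and 3.58 and beta cell progenitor-like cells 4.55 and 3.93. Duct-like cells had 3.64 and 3.07 and proliferating progenitor-like cells 3.50 and 2.70. In the median cell the distance between beta-like and delta-like cells was therefore small, and the distance in the sums came from the upper tail of the beta-like cells.

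**Figure D2:**
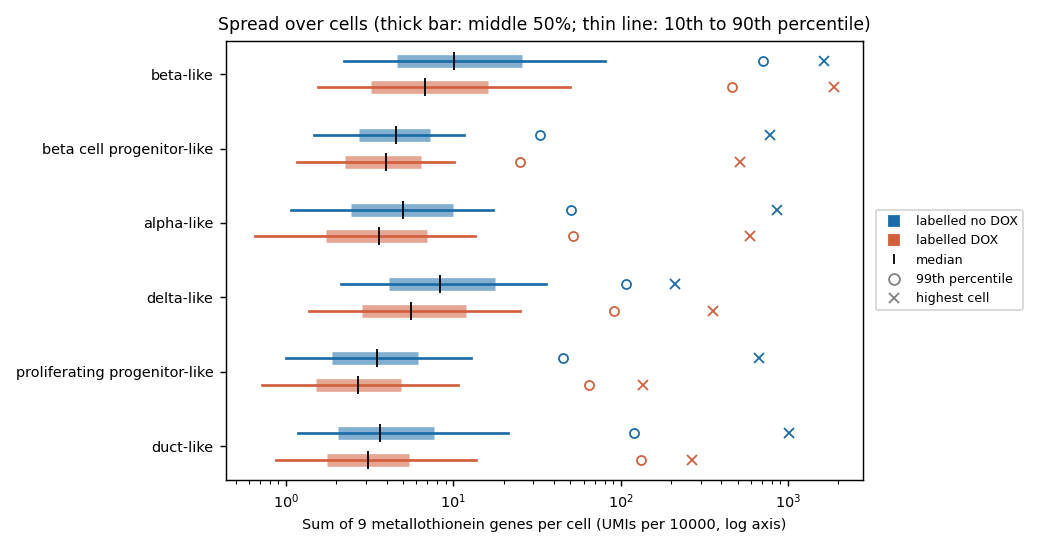
Metallothionein UMIs per 10000 UMIs of a cell (log x axis) in 6 cell classes and both libraries, with the median, the middle 50%, the 10th to 90th percentile, the 99th percentile and the highest cell. The medians lie between 2.70 and 10.1, while the 99th percentile of beta-like cells reaches 705 and 463, above that of every other class.

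The members differed in how many cells shared their UMIs. In the no DOX-labelled library, 50% of the MT1B UMIs lay in 19 of 21805 cells, of MT1A in 33, of MT1H in 49, of MT1M in 73 and of MT1G in 114. For MT2A it took 408 cells, for MT1E 429, for MT1X 677 and for MT1F 1543, against 1299 cells for MTF1, a gene of few UMIs. The DOX-labelled library gave the same order for these 6 of the metallothionein genes, with 14 cells for MT1B, 36 for MT1A, 44 for MT1H, 66 for MT1M, 103 for MT1G and 1924 for MT1F.

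Shares of cells with at least 1 UMI were compared after cells of at least 5000 UMIs were thinned to that number. This left out 2544 of 21805 cells labelled no DOX and 2223 of 23116 labelled DOX, among them 371 and 312 beta-like and 618 and 492 alpha-like cells, so the thinned shares describe the deeper cells. In beta-like cells MT1X was found in 71.2% of cells labelled no DOX (88.1% before thinning) and 63.0% labelled DOX (81.7% before). MT1F was found in 61.2% and 54.0% of beta-like cells and in 61.7% and 60.8% of beta cell progenitor-like cells, although its level was higher in beta-like cells. MT1G, in contrast, was found in 38.7% and 29.2% of beta-like cells and still in 25% and 19.4% of alpha-like cells. MT1B was found in 3.43% and 1.60% of beta-like cells and in 0.877% and 0.743% of alpha-like cells. No class was free of these genes, so no share could serve as the background that free RNA gives.

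In single beta-like cells the 9 metallothionein genes rose together. Across 6682 thinned cells labelled no DOX the Pearson r of ln(1 + UMIs) between 2 of the genes had a median of 0.52 over 36 pairs, from 0.29 for MT1B and MT1F to 0.73 for MT1E and MT2A. Across 9608 cells labelled DOX the median was 0.45, from 0.21 to 0.71, with the same lowest and highest pair. MTF1 was not part of this, with r between -0.02 and 0.00 in the cells labelled no DOX and up to 0.02 in those labelled DOX, though its UMIs are too sparse for a correlation to be read. In the 3 other endocrine classes the median r over the pairs lay between 0.05 and 0.17, and each lowest pair held MT1A, MT1B or MT1H, rarely counted there. Their highest pairs reached 0.56 and 0.54 in delta-like cells (MT1E and MT2A), 0.39 and 0.18 in beta cell progenitor-like and 0.29 and 0.42 in alpha-like cells. A joint rise of members was thus not limited to beta-like cells. These are descriptions over cells of 1 library each, which share a run and a cell-sorting step.

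To follow the family from low to high, beta-like cells were divided by their metallothionein sum into cells under 5, from 5 to 20, from 20 to 100 and over 100 UMIs per 10000. These ranges held 1926, 2984, 1542 and 601 cells labelled no DOX and 3877, 3942, 1544 and 557 cells labelled DOX. They are cuts by level, and whether any of them matches a cell type was not tested. In the 4 ranges 213, 400, 212 and 35 cells labelled no DOX and 352, 559, 220 and 40 labelled DOX lay within 10% of a limit. Cells over 100 were 8.52% and 5.61% of beta-like cells and held 74.3% and 66.8% of their metallothionein UMIs. Median depth rose with the range, from 16608 to 25114 UMIs and from 13838 to 19898 UMIs, while the median mitochondrial share was 6.65% in the lowest and 7.49% in the highest range (no DOX) and 7.59% and 8.34% (DOX). Among beta-like cells of 10000 to 25000 UMIs, a choice made after seeing the data, cells over 100 were 5.15% and 4.98%. At Leiden resolution 0.5, where the finer cluster with most metallothionein UMIs bore no name, they were 1.024% and 0.354% of the cells still named beta-like.

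The make-up of the metallothionein RNA changed along this range. Under 5 per 10000, MT1X and MT1F led, with 32.6% and 27.3% of the metallothionein UMIs in the no DOX-labelled library. Over 100 per 10000 they had 14.5% and 4.84%, and MT1G led with 36.6%, against 11.6%, 8.26% and 12.5% in the 3 lower ranges. MT2A peaked in between, with 19.96%, 26.0%, 35.6% and 24.3% from the lowest to the highest range, and so did MT1E, with 6.51%, 9.04%, 13.8% and 8.76%. MT1H went from 0.789% to 4.29%, MT1M from 0.659% to 3.55%, MT1B from 0.421% to 2.63% and MT1A from 0.173% to 0.413%, so that each of these rare genes took its largest share in the highest range.

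The DOX-labelled library gave nearly the same proportions. MT1F went from 27.7% to 4.79% and MT1X from 33.5% to 13.5% from the lowest to the highest range. MT1G had 9.99%, 6.92%, 12.1% and 37.0% in the 4 ranges, and MT2A had 19.4%, 27.4%, 37.7% and 25.9%. MT1B went from 0.207% to 1.31%, short of its 2.63% in the other library.

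**Figure D3:**
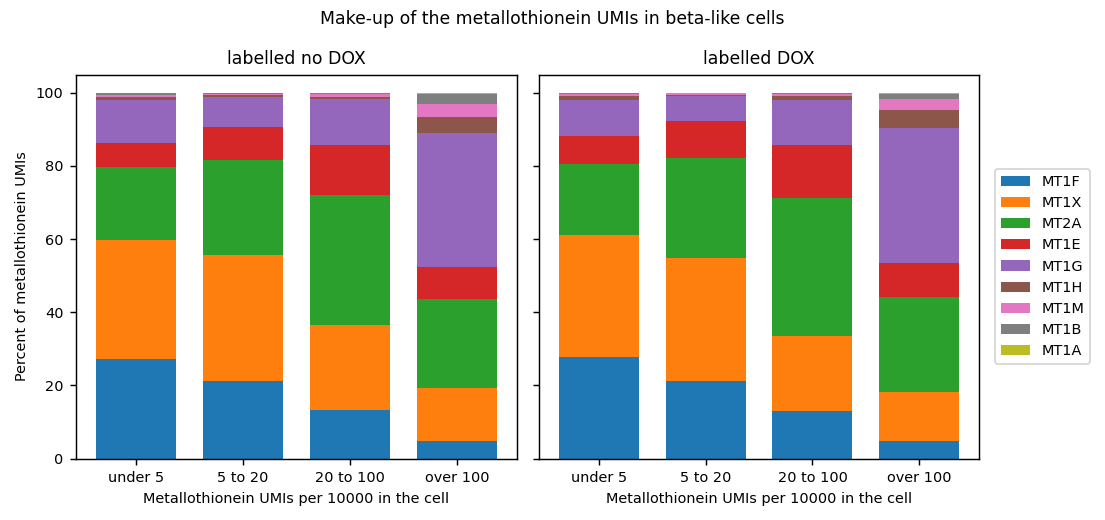
Percent of the metallothionein UMIs of beta-like cells that each of the 9 genes takes (y axis), for cells under 5, 5 to 20, 20 to 100 and over 100 metallothionein UMIs per 10000 (x axis), in each library. MT1F shrinks at every step from left to right and MT1X from the range of 20 to 100 on. MT2A is largest from 20 to 100 (35.6% and 37.7%), and MT1G takes 36.6% and 37.0% over 100.

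The ranges are cuts of the sum of the 9 genes, so their levels had to rise along it as a group. In levels, MT1G went from 33.2 CPM in beta-like cells under 5 to 13222 CPM in those over 100 labelled no DOX, and from 26.8 to 12077 CPM labelled DOX. MT1F went from 78.0 to 1747 CPM and from 74.1 to 1564 CPM. MTF1, which is not part of the sum, was counted over UMIs outside the family. It had 7.995, 8.505, 8.693 and 6.02 CPM from the lowest to the highest range labelled no DOX and 7.73, 7.67, 7.28 and 7.59 CPM labelled DOX. The intervals of all 4 ranges of MTF1 overlapped in the DOX-labelled library. In that labelled no DOX the highest range (4.84 to 7.40 CPM) lay below those from 5 to 20 (7.74 to 9.32) and from 20 to 100 (7.67 to 9.81). Its log2 ratio to the lowest range was -0.41 (-0.77 to -0.06 by counting error), over 20% lower. In the same comparison 26.6% of all genes were at least 20% lower, with a median log2 ratio of -0.16. The MTF1 level of the highest range rests on 90 UMIs, and the ratio turned to 0.63 with the finer clusters. A fall of MTF1 in the high cells is therefore not read from this value.

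Genes around the family were read from fixed lists in the same cells, over 100 against under 5 per 10000, with metallothionein UMIs left out of the totals. Of all 9950 genes with at least 5 CPM in 1 group, 8.72% were at least 25% higher and 26.6% at least 20% lower in the no DOX-labelled library, and 8.31% and 23.1% in that labelled DOX, with medians of -0.16 and -0.13 on the log2 scale. Of the zinc exporters SLC30A1 to SLC30A10, 2 of 8 measured were higher and 2 lower (no DOX), and 1 of 7 was higher and 2 lower (DOX). One of those higher, SLC30A2 in the no DOX-labelled library, reached 5 CPM through the high cells alone and so had to be higher. SLC30A1, the exporter of the plasma membrane and itself a target of MTF1, stood at 99.5 against 39.6 CPM and at 73.7 against 33.6 CPM. It was found in 77.5% against 41.6% of those cells and in 69.5% against 33.8%. SLC30A2, a vesicle exporter, was nearly missing from the low cells (6 UMIs and 5 UMIs) and stood at 6.15 and 4.50 CPM in the high cells. SLC30A8, the exporter of insulin granules, was lower in the high cells, at 461 against 692 CPM and 432 against 622 CPM.

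Of the zinc importers SLC39A1 to SLC39A14, 2 of 10 measured were higher and 3 lower in both libraries. One of those higher, SLC39A11, reached 5 CPM through the high cells alone (5.15 against 3.18 and 5.998 against 3.79 CPM). SLC39A5, an importer of pancreas and gut epithelium, stood at 114 against 24.6 CPM and at 113 against 24.1 CPM. SLC39A10 moved the other way, at 11.3 against 52.9 CPM and 13.1 against 60.3 CPM. High cells therefore held more of one importer RNA and less of another. SLC39A6, a close relative of SLC39A10, was also lower, at 32.4 against 48.7 CPM and 30.3 against 44.5 CPM, while SLC39A7, the importer of the endoplasmic reticulum, was nearly level, at 118 against 114 and 115 against 114 CPM.

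**Figure D4:**
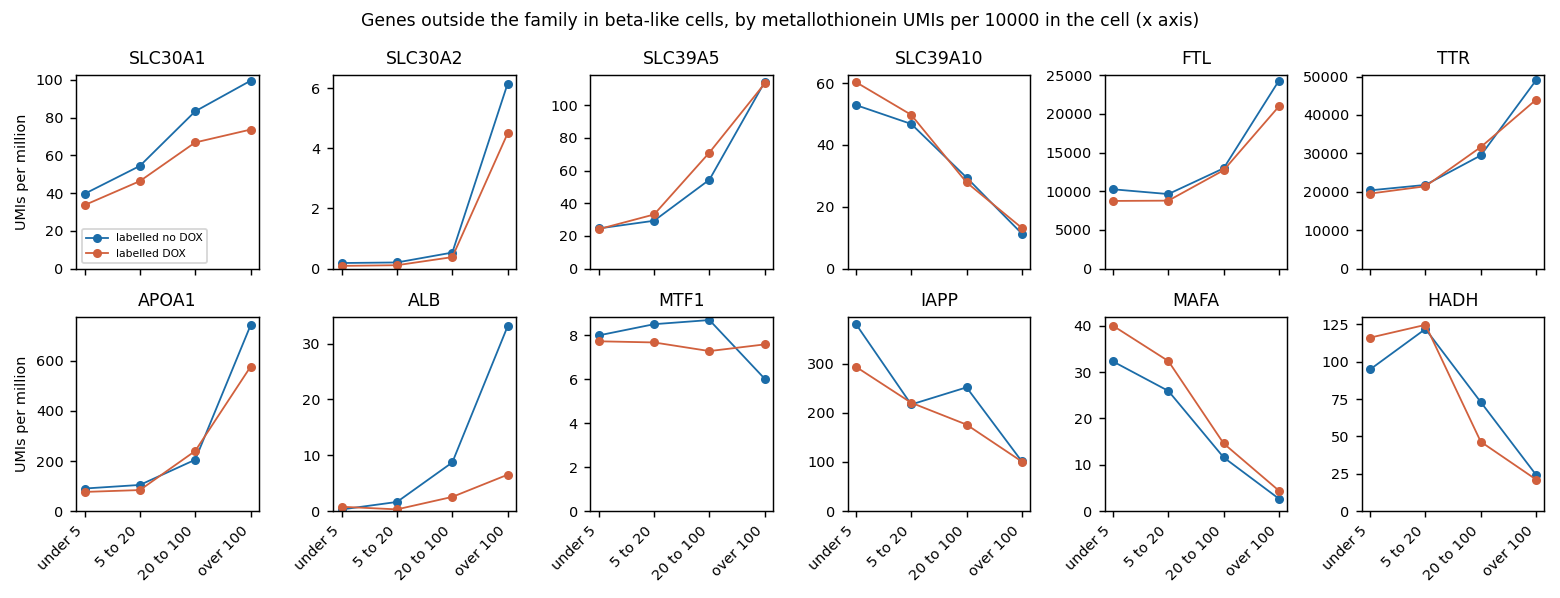
Level in CPM (y axis, from 0) of genes outside the family in beta-like cells, for cells under 5, 5 to 20, 20 to 100 and over 100 metallothionein UMIs per 10000 (x axis), in the no DOX-labelled and DOX-labelled libraries. SLC39A5 and SLC30A1 are highest over 100 (114 and 99.5 in the no DOX-labelled library), whereas SLC39A10 and MAFA are lowest there (11.3 and 2.68).

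Of 11 redox and metal genes 8 were measured, and 4 were higher and 0 lower in the no DOX-labelled library, against 2 higher and 1 lower in that labelled DOX. FTL, the light chain of ferritin, the iron store, stood at 24314 against 10252 CPM and at 20982 against 8746 CPM. FTH1, its heavy chain, was nearly level, at 2360 against 2173 CPM and 2290 against 2080 CPM. TXNRD1, a thioredoxin reductase, was at 50.9 against 39.4 CPM and 49.4 against 38.4 CPM. Glucocorticoids are also known to raise metallothionein RNA, and of 7 glucocorticoid response genes 5 were measured, with 2 higher and 1 lower (no DOX) and 1 higher and 2 lower (DOX), of which PER1 labelled DOX reached 5 CPM through the low cells alone (4.06 against 5.54). DUSP1, also an immediate early gene, was at 94.6 against 40.4 CPM in the no DOX-labelled library and at 54.7 against 45.4 CPM in that labelled DOX.

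Beta cell markers moved in both directions. INS was nearly level, at 187200 against 201060 CPM and 184128 against 194209 CPM in cells over 100 against those under 5. MAFA, a transcription factor of mature beta cells, was at 2.68 against 32.3 CPM and 4.41 against 40.0 CPM, and had at least 1 UMI in 4.49% against 22.2% and in 7.18% against 25.9% of cells. Its level in the low cells alone passed 5 CPM. ENTPD3, a surface marker of mature beta cells, was at 13.7 against 60.5 and 18.2 against 68.2 CPM. Islet amyloid polypeptide, IAPP, was at 101 against 381 and 101 against 294 CPM, and HADH, an enzyme of fatty acid oxidation, at 24.3 against 94.9 and 21.2 against 116 CPM. In contrast PCP4 was at 2860 against 1445 and 2570 against 1275 CPM, and CDKN1C, a cell cycle inhibitor, at 803 against 430 and 739 against 441 CPM. In cells of 10000 to 25000 UMIs the log2 ratio of IAPP went from -1.91 to -0.95 (no DOX) and from -1.54 to -2.45 (DOX) and that of MAFA from -3.59 to -2.98 (no DOX), while SLC30A1 had 1.38 and 1.18, SLC39A5 2.22 and 2.28 and SLC39A10 -2.36 and -2.48. At Leiden resolution 0.5 ENTPD3 went from -2.14 to -0.61 (no DOX) and from -1.91 to -2.55 (DOX), and IAPP to -0.81 and -4.14. In all, 7 of 13 markers were higher and 5 lower in the no DOX-labelled library, and 4 higher and 5 lower in that labelled DOX.

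Markers of other classes and cell types were given beside these results. Hepatocyte markers summed to 33.6 CPM over 100 and 0.340 under 5 in the no DOX-labelled library, and to 6.70 and 0.876 in that labelled DOX, nearly all ALB. ALB was found in 27 of 601 and 13 of 557 high cells, and 1 cell held 133 of the 495 and 35 of the 74 ALB UMIs. APOH had 2 and 0 UMIs and AHSG 6 and 2 in the high cells. Delta-like markers summed to 4877 against 4515 and 5985 against 4013 CPM, alpha-like markers to 741 against 409 and 540 against 420 CPM, and duct-like markers to 222 against 182 and 210 against 162 CPM. Beta cell progenitor-like markers were lower in the high cells, at 244 against 423 and 214 against 326 CPM, and endothelial markers were at 0 there in both libraries. CD68, the 1 immune marker measured, was higher in the high cells, at 24.9 against 14.3 and 19.2 against 13.0 CPM, while mesenchymal and acinar markers summed to at most 2.65 CPM in every range. The part of other cells in these differences was not tested.

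The genes most like the family over beta-like cells were sought among 4895 genes with at least 20 CPM. By the smaller of the 2 libraries' Pearson r with the metallothionein sum, they were APOA1 (r of 0.38 and 0.36 over 7053 and 9920 cells), SLC39A5 (0.38 and 0.35), APOC3 (0.34 and 0.34), TTR (0.35 and 0.34), FTL (0.35 and 0.33), APOA2 (0.37 and 0.32), FKBP11 (0.35 and 0.30), AGT (0.33 and 0.30), APOM (0.31 and 0.28) and CYP1A1 (0.29 and 0.28). The median gene had r of -0.01 in both, and the depth of a cell itself had 0.21 and 0.24. Of the 10, APOA1, APOA2, APOC3 and APOM encode apolipoproteins and TTR the carrier transthyretin. APOA1 was picked by its r with the same sum that sets these ranges, so it had nearly to be higher in the high cells. It stood at 741 CPM in beta-like cells over 100 and 90.3 under 5 labelled no DOX, and at 576 and 76.7 labelled DOX. It had a UMI in 90.3% and 89.0% of the high cells, against 53.0% and 45.2% of the low ones. Its log2 ratio of 3.04 (no DOX) and 2.91 (DOX) was 2.46 and 3.04 in cells of 10000 to 25000 UMIs and 0.41 and 2.69 at Leiden resolution 0.5, so its size in the no DOX-labelled library depends on which cells are called beta-like.

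Over the 6 named classes in both libraries, 12 points in all, another set followed the family. Among 8586 genes the highest Pearson r with the metallothionein sum was that of IGDCC3 (0.88), followed by DIXDC1 and TFF3 (both 0.85), PYCR1 (0.83), HIBCH (0.82), RPIA (0.81), MAFA and ENTPD3 (both 0.80), RPL3 (0.79) and TMED10 (0.78). MTF1 had -0.59. No background r over all genes is given for these points. In beta-like cells 46.4% (no DOX) and 50% (DOX) of all genes were at least 20% lower than in the other endocrine classes. The negative r is therefore not read as a trait of MTF1. MAFA and ENTPD3 are among the markers that named the beta-like class, so a high level in that class came with the naming. Both were low in the cells of that class where the family is highest. Sums of the rarer classes among these points rested on few cells, as given above. The 12 points share libraries and classes and are no independent samples.

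Between the libraries, the metallothionein sum was lower with the DOX label. Over all cells kept it was 2973.8 CPM (2967.8 to 2979.9) labelled no DOX and 2237.0 CPM (2231.7 to 2242.3) labelled DOX, a log2 ratio of -0.41 (-0.42 to -0.41 by counting error). The log2 ratio was -0.64 in beta-like, -0.34 in alpha-like, -0.46 in delta-like, -0.55 in beta cell progenitor-like, -0.72 in proliferating progenitor-like and -1.04 in duct-like cells. In no named class was the sum higher with the DOX label. Without the few cells over 100 metallothionein UMIs per 10000, a choice made after seeing the data, it was -0.26 in beta cell progenitor-like (without 8 and 1 cells), -0.23 in proliferating progenitor-like (3 and 3), -0.59 in duct-like (3 and 4), -0.41 in alpha-like and -0.48 in delta-like cells. With 1 library per condition, effects of doxycycline, SOX9 editing and any difference in culture or handling between the 2 libraries cannot be told apart. Beta-like cells, the class with most metallothionein RNA, were 32.3% of cells labelled no DOX and 42.9% labelled DOX, alpha-like cells 23.2% and 17.9%, delta-like cells 12.1% and 8.41% and beta cell progenitor-like cells 24.2% and 22.9%, and with every class weighted equally the log2 ratio was -0.64, or -0.54 without those high cells in the classes other than beta-like.

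Over all cells, 6 of the 9 genes were lower by at least 20% with the DOX label and 0 were higher by at least 25%, against 1.99% and 1.16% of all 10444 genes with at least 5 CPM. MT1B had the largest ratio, with 53.9 CPM labelled no DOX and 18.2 labelled DOX (log2 -1.57, -1.61 to -1.52). MT1A had 10.6 and 5.11 CPM (log2 -1.05) and MT1M 75.6 and 45.8 CPM (log2 -0.72). UMIs of these genes lay in few cells, as did those of MT1H, which had a smaller ratio, and the counting intervals do not cover this. MT1G had 799 and 576 CPM (log2 -0.47), MT1X 571 and 417 (log2 -0.45) and MT2A 795 and 627 (log2 -0.34). MT1E (294 and 235 CPM) and MT1H (90.4 and 72.5 CPM), both with a log2 ratio of -0.32, lay just short of 20% lower, and MT1F had 285 and 240 CPM (log2 -0.25). MTF1 had 10.3 and 10.2 CPM (log2 -0.01, -0.09 to 0.06).

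Within beta-like cells all 9 genes were at least 20% lower (2.52% of all genes), from MT1F with a log2 ratio of -0.46 to MT1B with -1.78, and MTF1 had -0.09 (-0.21 to 0.03). In delta-like cells 7 of 7 measured were lower (1.59% of all genes) and in beta cell progenitor-like cells 8 of 9 (1.90%), where MT1F, with 254 and 240 CPM, was the one short of it. In alpha-like cells 3 of 7 measured were lower (2.01% of all genes). One of these was MT1M, with 351 of 762 UMIs labelled no DOX and 75 of 408 labelled DOX in 1 cell, and without those cells its log2 ratio went from -0.51 to 0.09. MT1G in alpha-like cells, short of 20% lower, likewise went from -0.18 to 0.02. In proliferating progenitor-like cells 7 of 8 were lower (6.94% of all genes) and in duct-like cells 9 of 9 (20.5%), classes of few cells in which single cells carried several of the genes. Members that reach 5 CPM in the no DOX-labelled library alone had nearly to be lower, and among genes at 5 CPM in both libraries 6 of 7 were lower in beta cell progenitor-like cells (without MT1A and MT1B), 4 of 5 in proliferating progenitor-like cells (without MT1B, MT1H and MT1M) and 7 of 7 in duct-like cells (without MT1A and MT1B). Without the cell of each library that held most of a gene, and with the same limit of 5 CPM, 7 of 8 were lower in beta cell progenitor-like, 4 of 5 in proliferating progenitor-like and 8 of 9 in duct-like cells, 2 of 7 in alpha-like cells, and still 9 of 9 in beta-like and 7 of 7 in delta-like cells. In this recount some genes again reached 5 CPM in the no DOX-labelled library alone and had nearly to be lower. They were MT1B, MT1H and MT1M in beta cell progenitor-like cells and MT1A and MT1B in duct-like cells. The share of all genes was not counted for this step. The middle of the distribution lay lower with the DOX label. The share of beta-like cells over 100 per 10000 was 8.52% and 5.61%, and 5.15% and 4.98% among cells of 10000 to 25000 UMIs. Of 9 alternative settings, 7 left this share near its main value in each library and 2, this range of depth among them, moved it. Median depth was 17980 UMIs in beta-like cells labelled no DOX and 14754 in those labelled DOX. Whether depth accounts for the difference in the share was not tested. Without the top 1% of beta-like cells the log2 ratio of the sum was -0.76. The median beta-like cell differed by a log2 ratio of -0.58.

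**Figure D5:**
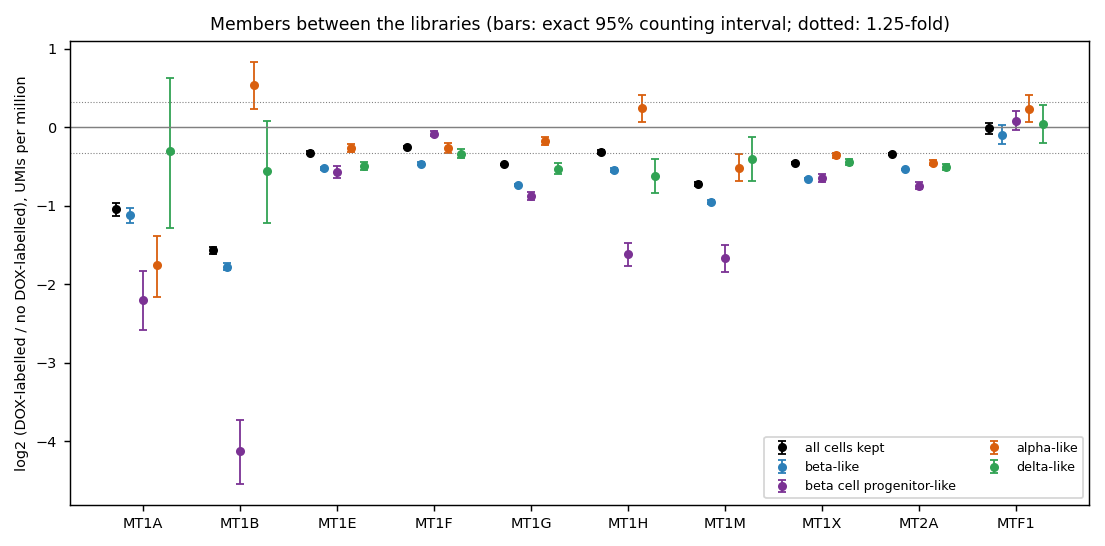
Log2 ratio of CPM, DOX-labelled library over that labelled no DOX (y axis), of each member (x axis) in all cells and in the larger classes, with exact 95% counting intervals and dotted lines at 25% higher and 20% lower. Points of the 9 metallothionein genes lie below 0 apart from MT1B (0.53) and MT1H (0.24) in alpha-like cells, and MTF1 lies between -0.09 and 0.23.

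Among the other listed genes, over all cells 0 of 7 measured zinc exporters, 0 of 10 importers, 0 of 8 redox and metal genes and 0 of 5 glucocorticoid response genes were 25% higher or 20% lower, while 3 of 13 beta-like markers were higher with the DOX label. Of all genes, 1.16% were higher and 1.99% lower in that comparison. The 3 markers were MAFA (log2 0.70), OLFM1 (log2 0.68) and ENTPD3 (log2 0.47). Within beta-like cells, whose share differed between the libraries, MAFA had 0.48, OLFM1 0.47 and ENTPD3 0.20, and 2 of the 13 were higher and 1, NEFM (-0.54), lower. Of all genes, 1.13% were higher and 2.52% lower in beta-like cells. There 0 of 9 importers and 0 of 7 redox and metal genes passed either limit, and 1 of 5 glucocorticoid response genes, KLF9 (log2 -0.41), was lower. SLC30A1 had 55.4 and 44.8 CPM over all cells (log2 -0.31, -0.34 to -0.27) and 62.1 and 47.0 CPM in beta-like cells (log2 -0.40), where it was the 1 exporter of 7 that was 20% lower.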

How the data were processed

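Single cells of 2 libraries, 1 per condition, were grouped by the labels. The authors deposited UMI counts per gene and barcode, not normalized. The labels name Cell Ranger 3.0, kallisto and bustools 0.40.0, and the file headers give software version 3.0.2. The build was GRCh38, and the droplet chemistry is not given in the sources used here. The 2 libraries held 550240855 and 520849221 UMIs. Barcodes under 1000 UMIs and doublets called by Scrublet (scanpy 1.11.5) were left out. Counts were scaled to 10000 per cell and log-transformed, total UMIs and mitochondrial share were regressed out, and 50 principal components with 3 neighbours per library were clustered (leidenalg 0.10.2, resolution 0.2), leaving out the metallothionein family and MTF1. Clusters took a class name where at least 3 of its markers, and its markers on average, were raised by a log2 fold of 1 or more. The study found these markers in the same cells, so they are no independent evidence of a name.

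Levels are UMIs per 1000000 with exact Poisson 95% intervals. Ratios have exact conditional binomial and shares exact Clopper-Pearson intervals (scipy 1.17.1), which cover counting error only. With 1 library per condition no test was made, and genes at least 25% higher or 20% lower were counted among those with at least 5 CPM. Scripts (Python 3.11.15, numpy 2.4.6, pandas 2.3.3, matplotlib 3.10.9) were tested on simulated counts. The members and all gene lists were chosen with earlier results of these data known. Genes named are the members, zinc transporters, redox and metal genes, glucocorticoid response genes, class markers and the 10 genes most like the metallothionein sum over beta-like cells and over classes. Other genes of the family were those whose symbols start with MT1, MT2, MT3 or MT4. Alternatives were doublets kept, stricter limits on depth and mitochondrial share, other clusterings, other totals, thinning to 5000 UMIs, means of log values, classes weighted equally and centring. Leaving out the top 1% of cells, cells over 100 metallothionein UMIs per 10000 or the top cell of a gene, medians over cells and cells of 1 depth were chosen after seeing the data.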

Additional observations from a re-analysis of the deposited data

Results flagged for a closer look

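MT1B in alpha-like cells went against its direction in the other classes. It had 179 UMIs labelled no DOX and 198 labelled DOX, a log2 ratio of 0.53 (0.24 to 0.83), while its ratio was below 0 with an interval below 0 in 4 other classes. Without the cell that held most of it in each library (45 and 51 UMIs) the ratio was 0.52. MT1B stood at 2.64 and 3.83 CPM there, below the limit of 5 CPM, so it was not among the members measured in alpha-like cells. It had a UMI in 2.01% of alpha-like cells labelled no DOX and in 1.24% labelled DOX. In other classes labelled no DOX, 1 cell held 363 of 376 duct-like, 115 of 131 proliferating progenitor-like and 605 of 1108 beta cell progenitor-like UMIs. MT1H in alpha-like cells had 572 and 516 UMIs, a log2 ratio of 0.24 (0.07 to 0.41), and was lower with the DOX label in 5 other classes. Without its top cells (169 and 122 UMIs) the ratio was 0.36. The same step took MT1H in proliferating progenitor-like cells, 1 of those 5 classes, from -1.46 to 0.27 (26 and 29 UMIs). Neither difference between classes was tested, since there is 1 library per condition.

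Metallothionein UMIs were also present in barcodes that were left out of the comparisons above, of which the doublets entered only the alternative that kept them. Barcodes under 1000 UMIs had a summed level of 1037 CPM (942 to 1139) labelled no DOX and 1199 CPM (1070 to 1339) labelled DOX, where 3 counts would be 7.15 and 11.5 CPM. Barcodes called doublets had 2372 CPM (2366 to 2378) labelled no DOX and 1708 CPM (1703 to 1714) labelled DOX, below the levels over all cells kept.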

How the results depend on the processing

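The direction of the metallothionein sum between the libraries was kept under every alternative run. Over all cells the log2 ratio was -0.411. It was -0.430 with doublets kept, -0.403 with INS and mitochondrially encoded genes out of the total, -0.404 centred on the median of all genes, -0.320 with cells thinned to 5000 UMIs, -0.271 as a mean of log values over cells, -0.643 with classes weighted equally, -0.377 without the top 1% of cells and -0.328 as a median over cells. In beta-like cells it was -0.638, and in the first 5 of those settings -0.667, -0.625, -0.627, -0.605 and -0.510. It was -0.602 without cells over 20% mitochondrial UMIs, -0.630 with at least 2000 UMIs, -0.655 with the family kept in the clustering, -0.750 at Leiden resolution 0.5, -0.627 with another seed, -0.699 with each library clustered alone, -0.758 without the top 1% and -0.575 as a median.

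With doublets kept, a cluster of 16543 barcodes (median 24156 UMIs) bore no name and entered neither the beta-like nor the other endocrine cells. The class values of that setting, here and for beta-like cells above, therefore say little on the added doublets. The log2 ratio of beta-like over the other endocrine classes, 2.39, was 2.27 with doublets kept, 2.31 without cells over 20% mitochondrial UMIs, 2.37 with at least 2000 UMIs, 2.58 with the family in the clustering, 2.32 with another seed, 2.41 with each library alone, 2.53 without INS and mitochondrial genes, 2.15 thinned and 2.22 without the top 1%. It was 0.934 as a mean of log values, 0.795 as a median over cells and 0.547 at resolution 0.5, where 2 of the finer beta-like clusters had no name. There MT1A (-0.23), MT1B (-1.11) and MT1H (-0.43) turned to lower in beta-like cells, and MTF1 in cells over 100 against under 5 turned to 0.63 (no DOX). Of the other genes compared between those cells, SLC30A2 (4.06), APOA1 (0.41), IAPP (-0.81) and ENTPD3 (-0.61) moved most at that resolution in the no DOX-labelled library, and cells over 100 fell from 8.52% and 5.61% to 1.024% and 0.354% of beta-like cells. The number of genes at least 20% lower over all cells, 6 of 9, was 0 with means of log values and 5 to 9 in the other settings. On the scale of log means, sparse genes such as MT1A and MT1B differed by -0.0097 and -0.025. The most counted members, MT1G, MT1X and MT2A, fell short of 20% lower there as well.

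No paired analysis was possible because each condition has 1 library, so there is no replicate to leave out. Few cells hold a UMI of MT1A (2.83% and 2.01%) or MT1B (3.58% and 1.81%), so depth limits these the most by that measure.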
